A study of Mus musculus with 6 samples.

Results

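The genes described here are the 9 that make, break down and sense the endocannabinoids: the receptor genes Cnr1 and Cnr2, the synthesis genes Napepld, Abhd4, Dagla and Daglb, and the breakdown genes Faah, Mgll and Abhd6. They were chosen by name, as the rows of the deposited count table whose Ensembl identifier carries one of these symbols, and make up 9 of 54232 genes. RNA was sequenced from primary oviductal smooth muscle cells, isolated from mice on day 2 of pregnancy. The 6 libraries were 3 of WT and 3 of conditional Pbrm1 knockout (Pbrm1 cKO) mice, all mated females 8 to 12 weeks of age. Pbrm1 encodes a subunit of the PBAF chromatin remodelling complex. In the study's cKO line, floxed Pbrm1 alleles (Pbrm1 fl/fl) are combined with PR-IRES-cre, a cre expressed from the progesterone receptor gene, so that deletion is expected in every cell type that has expressed that receptor and not in muscle alone. The labels name the controls WT, while a legend in the supplement names floxed mice without cre; whether the controls carry the floxed alleles was not settled here. The labels give neither the strain nor whether a library came from 1 animal or several, so the p-values measure the spread between these libraries, which may be technical. Cells were freed from minced oviducts by enzymes, filtered and plated for some hours, and no sort on a muscle marker is described.

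Endocannabinoids are lipid messengers cut from membrane phospholipids on demand. Anandamide is released from its phospholipid precursor by the phospholipase D encoded by Napepld, or by a second route that starts with the lipase encoded by Abhd4, and is hydrolysed by the fatty acid amide hydrolase encoded by Faah. The other main endocannabinoid, 2-arachidonoylglycerol (2-AG), is made from diacylglycerol by the lipases encoded by Dagla and Daglb and is hydrolysed chiefly by monoacylglycerol lipase (Mgll), with a smaller part taken by the hydrolase encoded by Abhd6. Both lipids act on the G protein-coupled receptors CB1 (Cnr1) and CB2 (Cnr2). In the mouse oviduct, CB1 signalling and a local balance between Napepld and Faah are known to be required for embryos to pass on time to the uterus, and loss of either CB1 or Faah delays that passage.

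Libraries held between 15390818 and 18947947 counts. At this depth a count of 3, taken as the floor, corresponded to between 0.158 and 0.195 CPM (read counts relative to library size, adjusted for composition), a limit that covers counting error only. Pbrm1 itself stood at 175 ± 7.09 CPM in WT and 45.6 ± 4.39 CPM in Pbrm1 cKO cells (SD, n = 3), with a log2 fold change of -1.94 ± 0.064 (SE; edgeR adjusted p = 9.13e-11), so the label of each library held. The table holds 1 count per gene, so where in Pbrm1 the remaining reads lie was not measured. Acta2, the smooth muscle actin gene, was the marker of the labelled cell type at 1287 ± 33.5 CPM in WT and 1536 ± 131 CPM in Pbrm1 cKO cells. Myh11, smooth muscle myosin heavy chain, stood at 88.2 ± 0.91 and 147 ± 13.2 CPM. Markers of other cells were present as well, with Pdgfra of fibroblasts at 747 CPM in WT, and their values are given with the cell type lists further on.

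Of the 9 genes, all 9 passed the filter on low counts and 4 (44.4%) passed the test between genotypes, which is near the share of all tested genes that did so (6723 of 15376, 43.7%). Mgll fell, and Dagla, Daglb and Abhd6 rose. All 4 called genes belong to the 2-AG pathway, and the receptor genes and the anandamide genes Napepld, Abhd4 and Faah gave no call; whether the 2-AG and anandamide genes differed in their response was not tested. By direction, 3 of the 9 were higher, against 21.9% of all tested genes, and 1 was lower, against 21.8%. The same 4 genes were those with no overlap between the WT and Pbrm1 cKO libraries, a pattern shown by 53.5% of all tested genes. The median log2 fold change was 0.07 over the 9 genes and 0.00 over all tested genes. The size of a change is best read against the median of 0.40 for the absolute log2 fold change of all called genes.

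**Figure D1:**
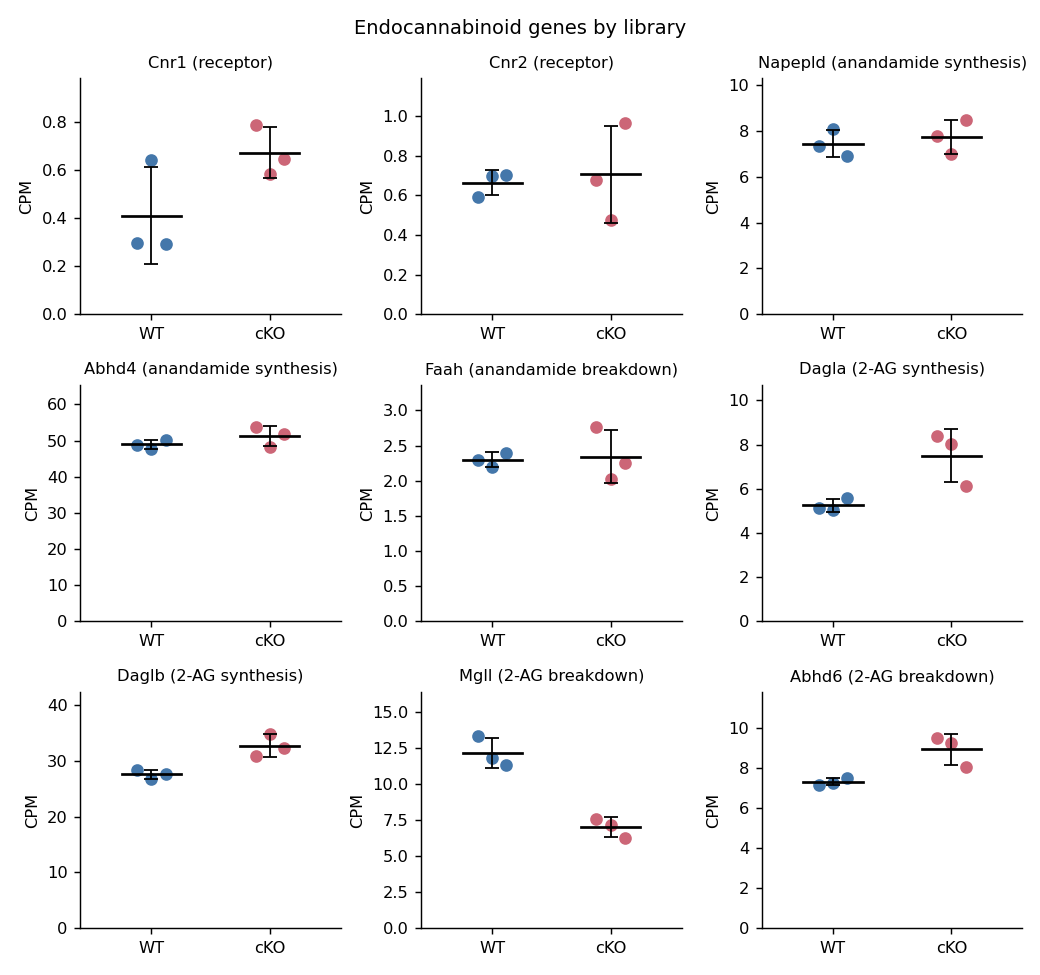
CPM of the 9 endocannabinoid genes in each of the 3 WT and 3 Pbrm1 cKO libraries, with 1 panel per gene; points are libraries, and horizontal lines with bars are means and SD. The 3 Pbrm1 cKO libraries lie below all WT libraries for Mgll and above them for Dagla, Daglb and Abhd6.

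The upstream sequences of the called genes are shown so that their start regions can be compared. RefSeq promoter windows (build GRCm38.p6) were found for 8 of the 9 genes, in 14 windows of 300 bases, and not for Dagla. The 250 bases before the first listed start site are printed 5′ to 3′ on the gene's strand, which was the forward strand for all 3. They span chr6:88724162-88724411 for Mgll, chr5:143464243-143464492 for Daglb and chr14:8002638-8002887 for Abhd6. Capitals mark matches to the motifs searched on both strands.
Mgll: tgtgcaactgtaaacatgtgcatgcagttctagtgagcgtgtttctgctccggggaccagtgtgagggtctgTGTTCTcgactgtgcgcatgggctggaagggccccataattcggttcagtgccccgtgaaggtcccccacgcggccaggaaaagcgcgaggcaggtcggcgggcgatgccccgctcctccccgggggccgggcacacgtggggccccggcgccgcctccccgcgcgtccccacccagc
Daglb: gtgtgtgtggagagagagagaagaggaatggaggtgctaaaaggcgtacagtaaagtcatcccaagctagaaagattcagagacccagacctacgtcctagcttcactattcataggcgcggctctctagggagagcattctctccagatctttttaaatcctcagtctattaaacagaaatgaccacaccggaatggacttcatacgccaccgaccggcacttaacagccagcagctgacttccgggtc
Abhd6: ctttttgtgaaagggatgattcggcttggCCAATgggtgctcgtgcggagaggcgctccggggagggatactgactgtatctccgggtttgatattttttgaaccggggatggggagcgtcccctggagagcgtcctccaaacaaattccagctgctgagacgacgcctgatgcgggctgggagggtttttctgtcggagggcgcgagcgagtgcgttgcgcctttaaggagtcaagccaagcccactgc
The Mgll stretch was the richest in G and C at 68%, with 58.4% for Abhd6 and 49.2% for Daglb. It held 1 copy of TGTTCT, a hexamer that forms one arm of the palindrome bound by the progesterone receptor, which 19% of all 32851 promoter windows and 2 of the 14 windows of the endocannabinoid genes held on either strand. The other of these was the window of Faah, a gene with no call, and that window held 2 copies. The Abhd6 stretch held 1 CCAAT box (CCAAT, in 37.4% of all windows), and the Daglb stretch held none of the motifs. Mgll and Abhd6 each had a second listed start site, not printed here. The window of that site held no TGTTCT for Mgll and no CCAAT box for Abhd6. The GC box GGGCGG was found in 8 of the 14 windows of the endocannabinoid genes and in 35.7% of all windows. These 14 windows are not independent, since several genes had more than 1. The windows of Abhd6 overlapped, and the same GC box was counted in both. The TATA box TATAAA (13.6% of all windows), the cyclic AMP response element TGACGTCA (1.79%), the AP-1 site TGANTCA (7.81%) and the CArG box (1.63%) had no match in the 14 windows. A match of letters is a description of these windows and was not tied to any factor here.

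The receptor genes were read first, since both lipids act through them. Cnr1 (ENSMUSG00000044288.6, chr4:33924593-33948831, forward strand) encodes CB1, the receptor required for embryo transport. Replicates 1 to 3 gave 5, 12 and 5 counts for WT cells, whereas those of Pbrm1 cKO cells gave 14, 11 and 10. The groups overlapped through WT replicate 2, and every library was above the floor of 3 counts but not far from it. The means were 0.41 ± 0.201 CPM in WT and 0.671 ± 0.105 CPM in Pbrm1 cKO cells. The log2 fold change was 0.68 ± 0.4 (SE), with a 95% interval from -0.18 to 1.54 and an edgeR adjusted p of 0.192, so both no change and a 2-fold higher level lay within the interval. Cnr1 passed the filter mainly through the Pbrm1 cKO libraries, since 3 of those and 1 WT library exceeded its cutoff of 0.574 CPM. With 1 library left out at a time, its log2 fold change ranged from 0.49 to 1.17. The highest value was the one without WT replicate 2 (edgeR adjusted p = 0.0716), and none of these fits gave a call.

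Cnr2 (ENSMUSG00000062585.11, chr4:135895394-135920207, forward strand) encodes CB2, the receptor known mainly from immune cells. The WT libraries gave 10, 13 and 12 counts, whereas the Pbrm1 cKO libraries gave 12, 9 and 15. The Pbrm1 cKO libraries enclosed the WT range on both sides. The means were 0.663 ± 0.0624 and 0.706 ± 0.245 CPM, and the log2 fold change was 0.06 ± 0.35 (95% interval -0.69 to 0.81; edgeR adjusted p = 0.908). At 5 to 15 reads per library, a change in either receptor gene smaller than these intervals was not detectable.

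The genes of anandamide showed values close to each other in both genotypes. Napepld (ENSMUSG00000044968.16, chr5:21662901-21701396, reverse strand), the synthesis gene, stood at 7.33, 8.07 and 6.91 CPM in WT and 7.76, 7 and 8.49 CPM in Pbrm1 cKO libraries. Its log2 fold change was 0.05 ± 0.12 (95% interval -0.20 to 0.31; edgeR adjusted p = 0.752). The libraries of both genotypes were interleaved.

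Abhd4 (ENSMUSG00000040997.13, chr14:54254188-54270637, forward strand), which opens the alternative route from the same precursor, was the most abundant of the 9 genes. It stood at 48.9, 47.7 and 50.2 CPM in WT and 53.9, 48.3 and 51.7 CPM in Pbrm1 cKO libraries. Pbrm1 cKO replicate 2 lay within the WT range and the other two lay above it. The log2 fold change was 0.07 ± 0.058 (95% interval -0.06 to 0.19; edgeR adjusted p = 0.374), the narrowest interval of the 9 genes.

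Faah (ENSMUSG00000034171.13, chr4:115967145-116017926, reverse strand), which degrades anandamide, stood at 2.3, 2.19 and 2.4 CPM in WT and 2.76, 2.02 and 2.25 CPM in Pbrm1 cKO libraries. The Pbrm1 cKO libraries lay on both sides of the WT libraries. The log2 fold change was 0.03 ± 0.19 (95% interval -0.39 to 0.44; edgeR adjusted p = 0.927).

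Of the 2-AG genes, Dagla, Daglb and Abhd6 were called higher and Mgll lower in Pbrm1 cKO cells, with the call of Abhd6 lost in 9 of 14 alternatives. Dagla (ENSMUSG00000035735.10, chr19:10245265-10304877, reverse strand), the diacylglycerol lipase best known from neurons, stood at 5.14, 5.03 and 5.56 CPM in WT and 8.38, 8.01 and 6.11 CPM in Pbrm1 cKO libraries. All Pbrm1 cKO libraries were higher than all WT libraries, and replicate 3 was the one closest to them. The means were 5.24 ± 0.282 and 7.5 ± 1.22 CPM, so Pbrm1 cKO cells held 143% of the WT level. The log2 fold change was 0.53 ± 0.14 (edgeR adjusted p = 0.00742), and 11.1% of all tested genes had a higher one.

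Daglb (ENSMUSG00000039206.13, chr5:143464584-143505942, forward strand), the second diacylglycerol lipase, prominent in macrophages and liver, stood at 28.4, 26.7 and 27.7 CPM in WT and 30.8, 34.9 and 32.4 CPM in Pbrm1 cKO libraries. The groups did not overlap, and the step was smaller than for Dagla. The means were 27.6 ± 0.848 and 32.7 ± 2.06 CPM (118% of WT), and the log2 fold change was 0.24 ± 0.068 (edgeR adjusted p = 0.0103). On the opposite strand, Rac1, a small GTPase gene, overlaps 2309 of the exon bases of Daglb (24.1%). Counting was strand-specific, and Rac1 stood at 279 ± 6.82 CPM in WT and 279.8 ± 5.55 CPM in Pbrm1 cKO cells (log2 fold change 0.00, edgeR adjusted p = 0.941). Whether any Rac1 reads were counted for Daglb was not tested.

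Mgll (ENSMUSG00000033174.17, chr6:88724412-88828360, forward strand), the main hydrolase of 2-AG, had the largest absolute change among the genes called. WT libraries held 225, 220 and 193 counts of it, whereas Pbrm1 cKO libraries held 135, 135 and 97, or 13.3, 11.8 and 11.3 CPM against 7.59, 7.16 and 6.24 CPM. The highest Pbrm1 cKO library was well below the lowest WT library. The means were 12.1 ± 1.04 and 7 ± 0.69 CPM, so Pbrm1 cKO cells held 57.7% of the WT level. The log2 fold change was -0.79 ± 0.11 (95% interval -1.03 to -0.55; edgeR adjusted p = 7.83e-05), and 4.21% of all tested genes had a lower one. Mgll is abundant in adipocytes, and Adipoq, which marks those cells, had 0, 1 and 0 counts for WT against 1, 0 and 2 for Pbrm1 cKO libraries. Markers of other cell types, some of them lower in Pbrm1 cKO cells, are given further on. The part of any cell type in the change of Mgll was not tested.

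Abhd6 (ENSMUSG00000025277.14, chr14:8002902-8056763, forward strand), a membrane hydrolase that also cleaves 2-AG, stood at 7.15, 7.27 and 7.49 CPM in WT and 9.5, 9.23 and 8.04 CPM in Pbrm1 cKO libraries. The groups did not overlap, and replicate 3 of the Pbrm1 cKO libraries was again the closest to WT. The means were 7.31 ± 0.174 and 8.93 ± 0.777 CPM (122% of WT), with a log2 fold change of 0.29 ± 0.11 (edgeR adjusted p = 0.0427). Abhd6 missed the threshold under 9 of 14 alternatives, with an adjusted p of 0.148 by DESeq2 and up to 0.144 when 1 library was omitted, and showed no change of direction and log2 fold changes between 0.25 and 0.36. Abhd6 and Abhd4 lie on the chromosome of Pbrm1, 23.0 and 23.1 Mb from it.

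**Figure D2:**
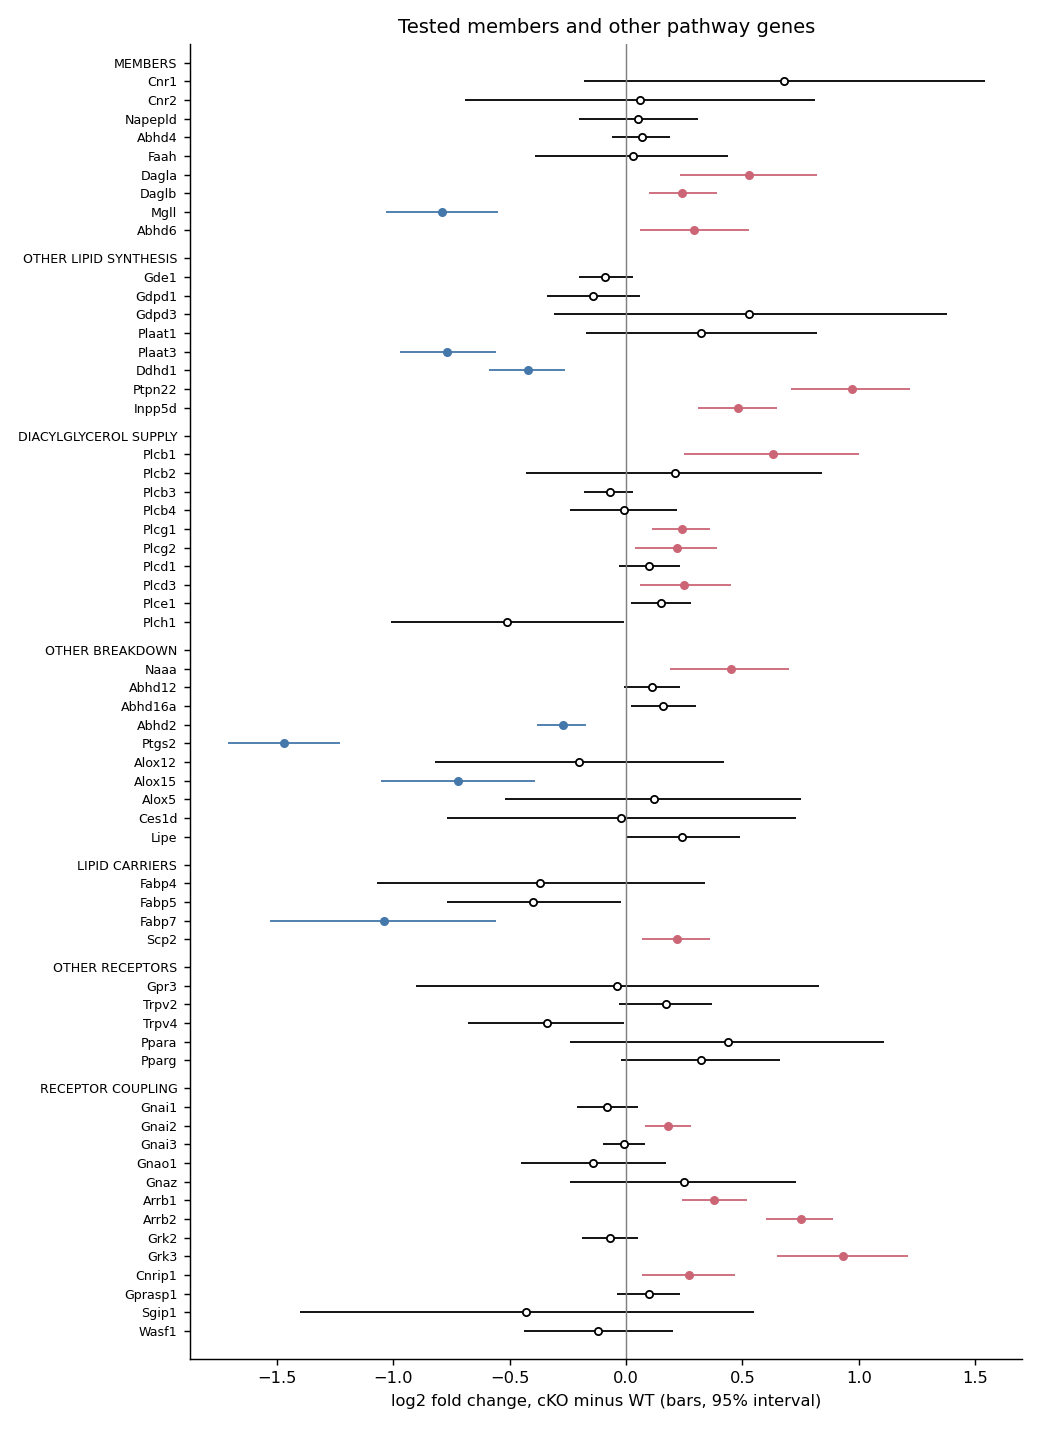
Log2 fold change, Pbrm1 cKO over WT, of each endocannabinoid gene and of the tested genes of the other pathway lists described below, with 95% intervals from edgeR. A negative value is lower in Pbrm1 cKO cells. Filled points are called genes and open points are genes with no call. Among the endocannabinoid genes, the interval of Mgll lies below 0, those of Dagla, Daglb and Abhd6 lie above it, and those of Cnr1 and Cnr2 are the widest.

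Levels of different genes were set side by side as CPM per kb of exon, to allow for gene length. The length used covers all annotated exons of a gene, and which of its transcripts were present was not measured. The order of genes and the size of ratios between genes therefore depend on the annotation. In order of the mean over all 6 libraries, Abhd4 led at 15.3 CPM per kb, followed by Abhd6 at 3.43, Daglb at 3.15, Napepld at 1.92, Mgll at 1.88 and Dagla at 1.11 CPM per kb. Faah (0.296 CPM per kb), Cnr2 (0.172) and Cnr1 (0.0839) formed the low end, so synthesis and 2-AG hydrolase genes were all above Faah and both receptor genes. In WT cells no neighbours in this order had overlapping ranges. In Pbrm1 cKO cells the overlapping neighbours were Abhd6 and Daglb, Mgll and Dagla, and Cnr2 and Cnr1. Mgll stood at 2.39 ± 0.206 CPM per kb in WT, above Dagla at 0.912 ± 0.0491, and at 1.38 ± 0.136 CPM per kb in Pbrm1 cKO cells, where Dagla had 1.31 ± 0.212. Napepld stood at 1.88 ± 0.149 CPM per kb in WT and 1.96 ± 0.188 in Pbrm1 cKO cells, so that Mgll was above it in every WT library and below it in every Pbrm1 cKO library. Within the diacylglycerol lipases, Daglb exceeded Dagla in every library, at 2.89 ± 0.0886 CPM per kb in WT and 3.41 ± 0.216 in Pbrm1 cKO cells.

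**Figure D3:**
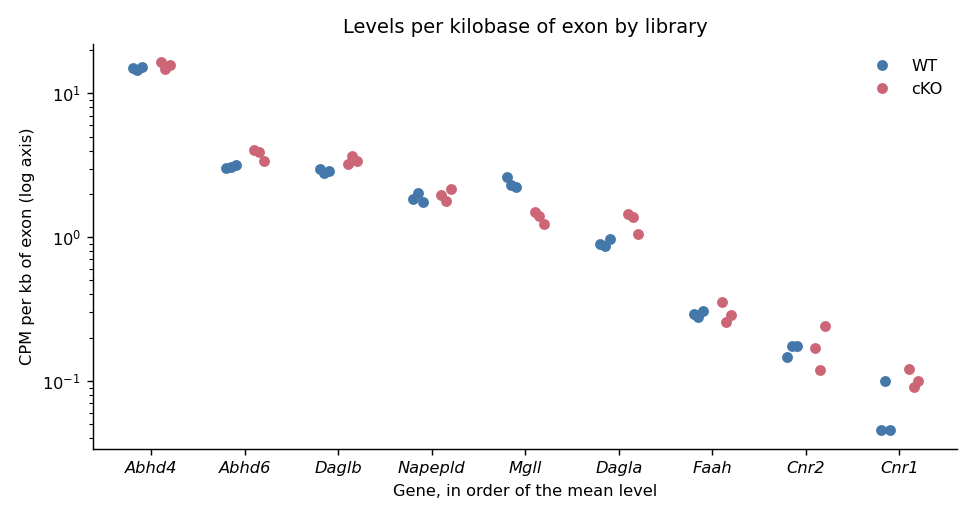
CPM per kb of exon (log axis) of the 9 genes in order of their mean, with each point 1 library of WT or Pbrm1 cKO cells. Abhd4 lies above all other genes, and Faah, Cnr2 and Cnr1 lie below 0.5 CPM per kb.

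The balance of synthesis to breakdown was taken as a ratio within each library, which does not depend on the scaling between libraries. For anandamide, the ratio of Napepld to Faah per kb was 6.3, 7.29 and 5.7 in WT and 5.58, 6.88 and 7.47 in Pbrm1 cKO libraries. The groups overlapped throughout, with means of 6.43 ± 0.805 and 6.64 ± 0.968 and a log2 difference of 0.04 (exact permutation test, two-sided, p = 0.8, adjusted over the 2 ratios p = 0.8). Adding Naaa, a lysosomal amidase of the same lipid class, to the breakdown side turned the log2 difference to -0.33 (exact permutation p = 0.1).

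For 2-AG, the ratio of Dagla plus Daglb to Mgll per kb was 1.48, 1.58 and 1.74 in WT and 3.13, 3.57 and 3.62 in Pbrm1 cKO libraries. Each Pbrm1 cKO library was higher than each WT library, and the means of 1.6 ± 0.13 and 3.44 ± 0.272 differed 2.15-fold (log2 difference 1.10). The exact permutation test gave p = 0.1 (two-sided, adjusted over the 2 ratios p = 0.2), the smallest that 3 against 3 libraries allow, so this design could not pass the threshold of 0.05. With Abhd6 and Abhd12, another 2-AG hydrolase, added to Mgll, the log2 difference was 0.25 (exact permutation p = 0.1). Abhd12 stood at 53.3 ± 1.69 CPM in WT and 57.5 ± 2.11 CPM in Pbrm1 cKO cells. Transcript ratios give no measure of lipid levels or enzyme activity.

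**Figure D4:**
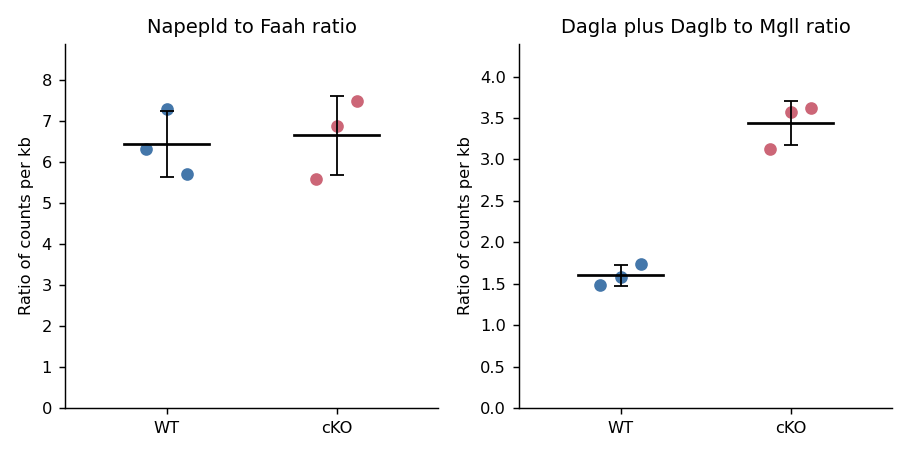
Ratio of synthesis to breakdown transcripts (counts per kb of exon within a library) for anandamide on the left and for 2-AG on the right; points are libraries, and lines with bars are means and SD. The Napepld to Faah ratios of both genotypes overlap, and the Dagla plus Daglb to Mgll ratios lie between 1.48 and 1.74 in WT and between 3.13 and 3.62 in Pbrm1 cKO libraries.

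Other genes of the pathway were read from 6 lists of 63 genes, of which 50 passed the filter and 19 passed the test, with 13 higher and 6 lower. The share called was below that of all tested genes (43.7%, with 21.9% higher and 21.8% lower), against which the counts of each list below are to be read. Their median log2 fold change was 0.11. Among enzymes of related N-acylethanolamine and phospholipid synthesis, 4 of 8 tested genes were called, with 2 higher and 2 lower. Ptpn22 and Inpp5d, phosphatases best known from leukocytes and named in a minor route to anandamide, rose from 6.87 ± 1.17 to 13.5 ± 0.375 CPM (log2 fold change 0.97, edgeR adjusted p = 2.22e-05) and from 22 ± 1.37 to 30.8 ± 2.71 CPM (0.48, adjusted p = 0.000289). Plaat3, an acyltransferase and phospholipase A that the annotation lists as Pla2g16, fell from 13.7 ± 0.618 to 8.02 ± 0.385 CPM (log2 fold change -0.77, adjusted p = 2.42e-05). Ddhd1, a phospholipase A1, fell from 28.1 ± 2.41 to 20.9 ± 0.46 CPM (log2 fold change -0.42, adjusted p = 0.000575).

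Phospholipase C enzymes release the diacylglycerol on which Dagla and Daglb act. Of 10 tested genes in this list, 4 rose and none fell, near the 43.7% called among all tested genes, with a list median of 0.18. Plcb1, which is coupled to Gq receptors, rose from 3.08 ± 0.444 to 4.79 ± 0.748 CPM (log2 fold change 0.63, edgeR adjusted p = 0.00957). Plcg1, which acts downstream of tyrosine kinases, rose from 55 ± 2.7 to 64.7 ± 3.25 CPM (0.24, adjusted p = 0.00475). Plcd3 (0.25) and Plcg2 (0.22) were called closer to the threshold, at adjusted p = 0.0352 and 0.0425, and lost the call in 6 and 10 of 14 alternatives.

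Among other breakdown enzymes, 4 of 10 tested genes were called, with 3 lower and 1 higher. The oxidising enzymes Ptgs2 (cyclooxygenase 2) and Alox15 (a lipoxygenase), which also use arachidonoyl lipids, both fell. Ptgs2 fell from 1828 ± 25.5 to 659 ± 151 CPM (log2 fold change -1.47, edgeR adjusted p = 2.56e-07) and Alox15 from 9.58 ± 1.55 to 5.81 ± 1.09 CPM (-0.72, adjusted p = 0.0017). Abhd2, a lipase that hydrolyses 2-AG in sperm when progesterone is bound, fell from 250.0 ± 3.02 to 207 ± 12.6 CPM (-0.27, adjusted p = 0.000558). Naaa rose from 6.31 ± 0.37 to 8.61 ± 0.86 CPM (0.45, adjusted p = 0.00766). Of the lipid carriers, 2 of 4 tested genes were called: Fabp7, a fatty acid binding protein that carries anandamide, fell from 3.7 ± 0.975 to 1.82 ± 0.32 CPM (-1.04, adjusted p = 0.00201), and Scp2, a sterol carrier, rose from 24 ± 1.1 to 27.9 ± 0.561 CPM (0.22, adjusted p = 0.0185).

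Other receptors that answer to endocannabinoids or related lipids were mostly below the filter. Of 13 genes, 5 were tested and 0 were called by edgeR, by DESeq2 or by limma-voom, with 1 at an unadjusted edgeR p under 0.05. Gpr119, Gpr6 and Gpr12 had 0 counts in all 6 libraries, and Gpr55, Gpr18, Trpv1, Trpa1 and Trpm8 had at most 1 count in any library. The log2 fold changes of those tested were -0.04 for Gpr3, 0.17 for Trpv2, -0.34 for Trpv4, 0.44 for Ppara and 0.32 for Pparg. All 13 genes of the receptor coupling list passed the filter. The lowest was Sgip1, at 0.574 ± 0.141 CPM in WT and 0.43 ± 0.241 CPM in Pbrm1 cKO cells, near the level of Cnr1. Of the 13 tested coupling genes 5 rose and none fell, a share called below the 43.7% of all tested genes.

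The called coupling genes included a receptor kinase gene and both arrestin genes of the list. Grk3, a kinase that phosphorylates active receptors, rose from 8.63 ± 0.952 to 16.5 ± 2.71 CPM (log2 fold change 0.93, edgeR adjusted p = 6.07e-05). The arrestin genes Arrb2 and Arrb1, whose products bind phosphorylated receptors, rose from 19.9 ± 0.101 to 33.4 ± 1.25 CPM (0.75, adjusted p = 1.08e-06) and from 31.3 ± 1.98 to 40.7 ± 1.07 CPM (0.38, adjusted p = 0.000326). Gnai2, a Gi alpha subunit, rose by 0.18 on the log2 scale (adjusted p = 0.0068), and Cnrip1, which binds the tail of CB1, by 0.27 (adjusted p = 0.028, lost in 5 of 14 alternatives). Grk2, the more abundant receptor kinase gene at 122 ± 3.72 and 116 ± 8.03 CPM, was not called (log2 fold change -0.07, edgeR adjusted p = 0.314). Apart from Cnrip1, these genes serve many receptors.

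Markers of several cell types differed between the genotypes beside these results, and in bulk RNA fewer cells of a type and less RNA per cell cannot be told apart. The counts of each marker list here and below are to be read against all tested genes, of which 43.7% were called, 21.9% higher and 21.8% lower. Leukocyte markers were higher for 11 of 12 tested genes, with a summed level of 768 to 821 CPM in WT and 1168 to 1248 CPM in Pbrm1 cKO libraries, and Ptprc, which defines leukocytes, was at 15 and 30.6 CPM. Of genes that these cells also express, picked by hand, Ptpn22, Inpp5d, Plcg2 and Daglb were called higher. Cnr2 (log2 fold change 0.06, edgeR adjusted p = 0.908), Plcb2 (0.21, adjusted p = 0.612) and Alox5 (0.12, adjusted p = 0.781) gave no call. Alox15 was called lower (-0.72, adjusted p = 0.0017). Whether leukocytes had a part in any of these values was not tested. Fibroblast markers were higher for 7 and lower for 1 of 10 (4939 to 5506 against 7338 to 7652 CPM, Pdgfra 747 and 1319 CPM). Epithelial markers were higher for 7 of 10 (958 to 1036 against 1209 to 1349 CPM, Epcam 30.9 and 65.3 CPM). Smooth muscle markers were higher for 5 and lower for 1 of 10 (3498 to 3570 against 4272 to 4769 CPM).

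Among the remaining lists, mesothelial markers were lower for 3 of 6 tested genes (368 to 386 against 299.9 to 318 CPM, Msln 54.6 and 30.8 CPM), with Calb2 at 0 counts throughout. Endothelial markers were higher for 2 and lower for 1 of 9 (367 to 391 against 313 to 324 CPM, Pecam1 60.1 and 65.9 CPM), and the lower one was Kdr, at 182 and 99.4 CPM. Neural and Schwann cell markers were higher for 2 and lower for 1 of 5 tested (93.1 to 100.3 against 80.2 to 85.1 CPM, Sox10 0.25 and 0.342 CPM, Tubb3 6.88 and 11.3 CPM), and the lower one was Uchl1, at 68.2 and 41.2 CPM. No adipocyte marker passed the filter, and the 7 together summed to between 0.0591 and 0.584 CPM in any library. The part of these cell types in the values of the endocannabinoid and pathway genes was not tested.

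The genes whose levels followed Mgll most closely over the 6 libraries were Map1a, Mlf2 and Meis3, with Pearson correlations of log2 CPM of 0.998, 0.996 and 0.996. Map1a, a microtubule-associated protein gene, stood at 95.9 ± 6.56 CPM in WT and 65.7 ± 4.23 CPM in Pbrm1 cKO cells, and Meis3, a homeobox gene, at 12.1 ± 0.701 and 7.38 ± 0.6 CPM. Such correlations over 6 libraries of 2 genotypes mainly follow the genotype difference, and 733 genes exceeded 0.95.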

How the data were processed

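Per the labels, stranded libraries were made from total RNA of 6 samples, using both random and poly(T) primers and a depletion step. The authors deposited 1 table of whole-number counts per gene, made with featureCounts 1.6.4 over GENCODE M18 exons (GRCm38.p5, reverse-stranded, uniquely assigned reads), with the exon length of each gene; the processing notes also name cutadapt and HISAT2. Symbols were matched for 54079 of 54232 genes (99.7%). Depth ranged from 15390818 to 18947947 counts, and all within-group pairs of libraries differed by more than sampling noise.

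Counts were tested with edgeR 4.0.16 (R 4.3.3; filterByExpr, TMM, two-sided quasi-likelihood F-test), Benjamini-Hochberg adjusted over 15376 genes at 0.05; the test was checked on simulated counts. Correlations used log2 CPM with a prior count of 2. DESeq2 1.42.0, limma-voom (limma 3.58.1), other scalings and filters, a replicate block and leaving out each library were alternatives. Values are mean ± SD over 3 libraries unless SE is given.

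The genes and lists were chosen with earlier results of these data known, so the lists, Ptgs2 included, are no independent evidence of direction. Named in the text are Pbrm1, the 9 genes, called genes of the other pathway lists (up to 6 each), defining cell type markers and the 3 genes closest to Mgll. Rac1, Abhd12, Calb2, Plcd4, Plcb2, Alox5, Grk2, Sgip1, Kdr, Uchl1 and the receptors with no call were named after their values were seen.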

Additional observations from a re-analysis of the deposited data

How the results depend on the processing

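Of 124 values of the endocannabinoid genes under the alternatives, 110 kept their direction and their side of the threshold. The calls of Mgll, Dagla and Daglb held in 14 of 14, with adjusted p up to 0.000678, 0.041 and 0.0492. The 9 lost calls were all of Abhd6, with DESeq2 (adjusted p = 0.148), upper-quartile scaling (0.051), no filter (0.0877), the replicate block (0.0562) and 5 of 6 fits without 1 library (up to 0.144). At a threshold of 0.01, 2 of the 9 genes were called. The 5 changes of sign all came from leaving out 1 library, in genes with no call: Cnr2 ranged from -0.21 to 0.29, Faah from -0.11 to 0.14 and Napepld from -0.01 to 0.13 (log2 fold change). The log2 difference of the Napepld to Faah ratio ranged from -0.05 to 0.16 without 1 library and was -0.33 with Naaa counted as breakdown. Cnr1 and Cnr2 could not be tested where 10 counts were required in every library.

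Deviations of same-numbered libraries correlated at -0.0243, 0.0353 and 0.0928, so the numbers did not pair the libraries. With the replicate block 6908 genes were called, of which 6617 were also called when no block was used, and 3 of the 9 genes passed. The count of all called genes was 5535 with DESeq2, 6690 with limma-voom and 4665 at a threshold of 0.01, and ranged from 5532 to 7054 without 1 library. Scaling moved the median of all genes by at most 0.02 (log2). Of 19 other pathway genes, 4 lost their call at least once (Plcd3, Plcg2, Cnrip1 and Scp2), and none changed sign. Counts under 20 reads limit the receptor genes.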

Other observations

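Plcd4, a phospholipase C gene below the filter on low counts and so not tested, was picked after its values were seen. It had 7, 13 and 13 counts in WT replicates 1 to 3 and 0, 7 and 1 counts in Pbrm1 cKO replicates 1 to 3.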
